A study of Mus musculus with 8 samples.

Results

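Fibroblasts of the uterine stroma are recognised in mice by a panel of 10 genes, and their mRNA was measured in whole uteri with and without deletion of *Ezh2* in the mesenchyme. The panel holds the matrix proteoglycan genes *Dcn* and *Lum*, the matrix gene *Dpt*, the cytoskeletal gene *Vim*, the platelet-derived growth factor (PDGF) receptor genes *Pdgfra* and *Pdgfrb*, and the genes of the cell surface and secreted markers *Thy1*, *Cd34*, *Pi16* and *Ly6a*. They were chosen by symbol as fibroblast markers and are 10 of the 27179 genes counted. All 10 passed the filter on low counts. RNA came from 8 uteri at postnatal day 10 (PD10), with a separate mouse and library for each. Of these, 4 were control mice (Ctrl) with the floxed *Ezh2* allele and no Cre, and 4 were *Ezh2 Amhr2*-Cre cKO mice with the same floxed allele and Cre expressed from *Amhr2*. *Amhr2*-Cre acts in cells that arise from the mesenchyme of the reproductive tract, and a whole uterus also holds epithelium, endothelium and blood cells. No group with Cre and a normal *Ezh2* allele was analysed here.

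EZH2 is the catalytic subunit of Polycomb repressive complex 2 (PRC2), which methylates lysine 27 of histone H3 and helps to keep genes of other lineages silent. Stromal fibroblasts make and organise the collagen matrix of the endometrium, divide and survive in response to PDGF, and send the signals under which the epithelium forms glands. The markers differ in how narrow they are. Fibroblasts share *Vim* and *Thy1* with other cells (*Vim* is present in most mesenchymal and endothelial cells, and *Thy1* also in T cells and neurons), *Cd34* and *Ly6a* are found in endothelium, and *Pdgfrb* is high in pericytes. *Pi16* marks a fibroblast population of the adventitia around vessels in many organs, and *Dpt* is not limited to that population. In RNA from a whole uterus, fewer cells of a type and less RNA per cell cannot be told apart.

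Expression is given as counts scaled to the size of the library after TMM normalization (CPM). Means carry the SD over 4 mice, and fold changes compare cKO with Ctrl. The libraries held between 25287141 and 36685807 counts, and the members had between 299 and 25329 counts in a library. *Ezh2* was at 49.5, 40.5, 54.7 and 35.4 CPM in Ctrl replicates 1 to 4 and at 30.4, 38.0, 40.7 and 38.0 CPM in cKO replicates 1 to 4. The genotypes overlapped for *Ezh2* (log2 fold change -0.29, standard error 0.13, adjusted p = 0.247 in edgeR's quasi-likelihood test), and the counts cover the whole gene in all cells of the uterus, whether they express Cre or not. By other assays the authors report recombination of the floxed allele in cKO uteri, lower *Ezh2* mRNA, and weaker EZH2 staining in the stroma but not the epithelium. Fat cell genes set 3 libraries apart. The summed level of a list of 7 of them was 2.00 to 4.10 CPM in Ctrl libraries and 4.03 CPM in cKO replicate 4, against 86.6, 206 and 92.6 CPM in cKO replicates 1, 2 and 3. The main results that passed the test are therefore also given with a fat score, the mean log2 level of the genes of this list that were tested, as a covariate, and for cKO replicate 4 alone against the controls. The score was -2.08 to -0.69 in Ctrl libraries, 3.37, 4.33 and 3.34 in cKO replicates 1 to 3 and -1.61 in cKO replicate 4. It thus nearly follows the genotype. Both fits rest largely on cKO replicate 4, are not separate checks and have less power than the fit without the score.

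Of the 10 fibroblast genes, *Thy1* was lower in cKO uteri and the other 9 did not pass the test. Over all 16658 genes tested, 5.34% had an adjusted p under 0.05 in edgeR's quasi-likelihood test, 2.71% lower and 2.62% higher in cKO. No member was differentially expressed (DE), meaning an adjusted p under 0.05 with a change over 2-fold, which 1.3% of all genes were. The median log2 fold change was -0.074 over the members and 0.00044 over all genes tested. The median over the members was -0.22 with the fat score as covariate, -0.26 for cKO replicate 4 alone and 0.02 without Ctrl replicate 2. The 95% interval of the fold change lay within 1.5-fold in either direction for 8 of 10 members, against 71.2% of all genes, and within 2-fold for 9 of 10, against 85.9%. *Pi16* was the member outside the wider limit.

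**Figure D1:**
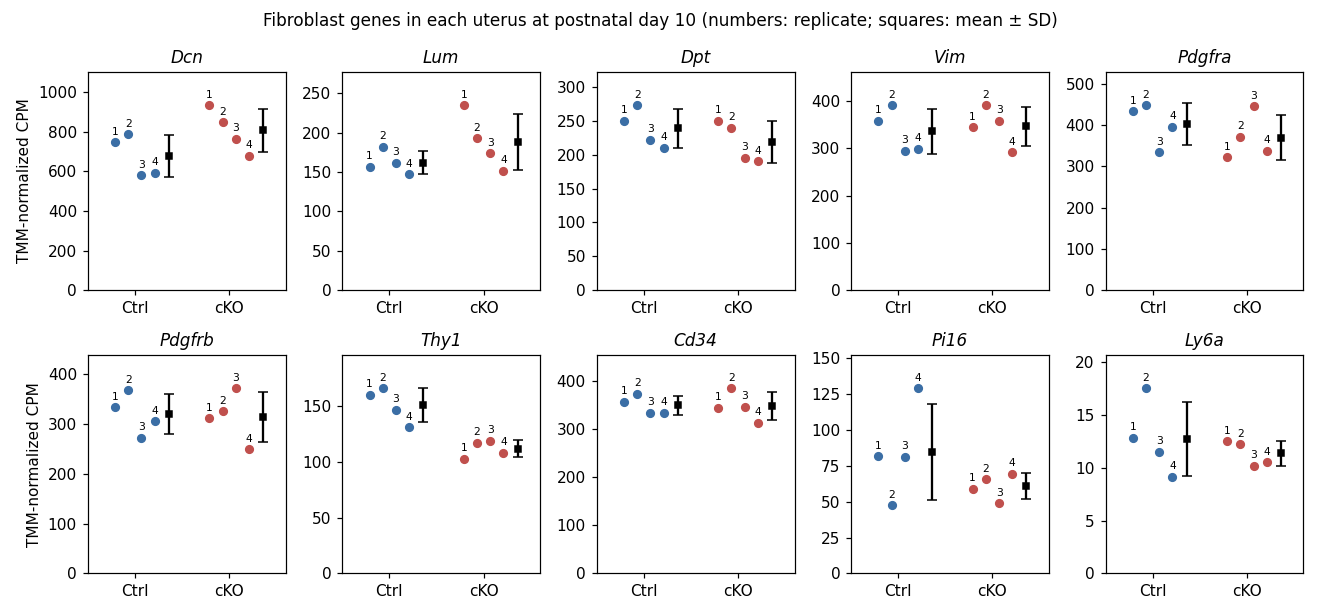
TMM-normalized CPM (vertical axes, each from 0) of the 10 fibroblast genes in Ctrl (blue) and cKO (red) uteri, with 1 numbered point per mouse and black squares for mean ± SD (n = 4). *Thy1* is the gene whose groups do not overlap, with 131 to 166 CPM in Ctrl and 103 to 119 CPM in cKO libraries, and *Pi16* is spread from 47.4 to 129 CPM among the Ctrl libraries.

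*Thy1* encodes a surface glycoprotein anchored in the membrane by lipid, which is used to sort fibroblasts. It lies on chromosome 9 of GRCm38 from 44043384 to 44048579. Its level was 160.4, 166, 147 and 131 CPM in Ctrl replicates 1 to 4 and 103, 117, 119 and 108 CPM in cKO replicates 1 to 4. Every cKO library was below every Ctrl library, as in 12.3% of all genes tested, where the groups lay apart in either direction. The mean was 151 ± 15.5 CPM in Ctrl and 112 ± 7.45 CPM in cKO (SD, n = 4 each), a fold of 0.74 with a 95% interval from 0.659 to 0.83. On the log2 scale the difference was -0.44 (standard error 0.08), with an adjusted p of 0.006 in edgeR's quasi-likelihood test. An exact two-sided permutation test of the 70 arrangements of the mice gave p = 0.029, the smallest it can give. *Thy1* passed the edgeR test in each of the 8 fits without a library, with log2 fold changes from -0.50 to -0.39. The fat score as covariate gave -0.51 (edgeR adjusted p = 0.0814), and for cKO replicate 4 alone, assumed to vary like the other libraries, the value was -0.48 (edgeR adjusted p = 0.294). The size of the difference was thus similar in the library without the fat signal, while the call was lost.

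Markers of other cells that use *Thy1* were read beside it. T cell genes, a list of 8 of which 7 were tested, had no member past the test and 6 with a log2 fold change below 0, with a median of -0.34. Their summed level was 12.9 to 19.5 CPM in Ctrl and 12.7 to 15.9 CPM in cKO libraries. Of these, *Lck* had the highest level (9.9 ± 1.09 and 9.24 ± 0.884 CPM, SD, n = 4 each), followed by *Cd4* (2.28 ± 0.927 and 2.04 ± 0.26 CPM). *Cd3d*, a subunit of the T cell receptor complex, was at 1.04, 1.04, 0.499 and 0.412 CPM in Ctrl and 0.35, 0.368, 0.154 and 0.21 CPM in cKO replicates 1 to 4. Its groups did not overlap (log2 fold change -1.46, standard error 0.42, edgeR adjusted p = 0.0642). *Cd3g* was at 1.65 ± 0.628 and 1.01 ± 0.359 CPM (-0.70), *Cd3e* at 0.567 ± 0.332 and 0.443 ± 0.204 CPM (-0.34), and *Cd8a*, under the filter, at 0.57 ± 0.552 and 0.157 ± 0.104 CPM (SD, n = 4 each). These 4 genes were chosen after values were seen. Natural killer (NK) cell genes, a list chosen after values were seen, were lower for 6 of 6, with sums of 6.84 to 11.3 CPM in Ctrl and 1.73 to 3.3 CPM in cKO, and of them *Klrd1* passed in 4 and *Klrb1c* in 6 of the 8 fits without a library. With the fat score as covariate *Ncr1* alone of the 6 passed (edgeR adjusted p = 0.0426). Its log2 fold change was -2.29 without a covariate, -3.06 with the fat score and -3.22 for cKO replicate 4 alone. Those of the other NK cell genes were -2.83 to -1.29, -2.85 to -1.5 and -2.65 to -1.53 in the same fits. Neuron genes, also chosen after values were seen, summed to 5.84 to 7.91 CPM in Ctrl and 7.81 to 10.9 CPM in cKO, and 1 of 3 tested was higher, *Rbfox3* (log2 fold change 1.66). This gene was at 1.37 with the fat score, where it did not pass (edgeR adjusted p = 0.0813), and at 1.38 for cKO replicate 4 alone. The part of these cells in the lower *Thy1* was not tested. Nerve-ensheathing Schwann cell genes summed to 8.02 to 10.3 CPM in Ctrl and 10.3 to 17.9 CPM in cKO, with *Cdh19* and *Sox10* higher among 5, which passed in 3 and 2 of the 8 fits without a library, and *Cdh19* did not pass with limma-voom. With the fat score and for cKO replicate 4 alone neither passed, and *Cdh19* went from a log2 fold change of 1.02 to 0.63 and 0.68 and *Sox10* from 0.92 to 0.48 and 0.46.

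The genes most like *Thy1* in their pattern over the 8 libraries were *Osr2*, *Aard* and *Twist2*. Likeness was the mean absolute gap between log2 levels, each gene taken relative to its own mean, over 12181 genes with a mean over 5 CPM. The gap was 0.048 for *Osr2*, 0.051 for *Aard* and 0.058 for *Twist2*. *Osr2*, a zinc finger transcription factor gene, was at 344 CPM in Ctrl and 244 CPM in cKO uteri (log2 fold change -0.50, standard error 0.09). *Aard* was at 24.7 and 17.9 CPM (-0.46, standard error 0.10) and *Twist2*, which encodes a basic helix-loop-helix factor of mesenchymal cells, at 26.8 and 19.0 CPM (-0.49, standard error 0.10). These genes were chosen for their likeness in the same libraries, so their differences describe the pattern and are no separate support for it.

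Decorin and lumican, the products of *Dcn* and *Lum*, are small leucine-rich proteoglycans that bind collagen and control the width of its fibrils. Their genes are neighbours on chromosome 10, *Dcn* from 97479500 to 97518163 and *Lum* from 97565501 to 97572703, with 47337 bases between them. *Dcn* was the most abundant member, with 746, 787, 579 and 592 CPM in Ctrl replicates 1 to 4 and 934, 848, 765 and 679 CPM in cKO replicates 1 to 4. Both Ctrl replicates 3 and 4 were below every cKO library, while Ctrl replicates 1 and 2 lay among them. The mean was 676 ± 106 CPM in Ctrl and 806 ± 109 CPM in cKO (SD, n = 4 each). The fitted log2 fold change was 0.25, with a 95% interval from -0.01 to 0.52 (adjusted p = 0.253 in edgeR's quasi-likelihood test).

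*Lum* was at 157, 182, 162 and 147 CPM in Ctrl replicates 1 to 4 and at 235, 193, 174 and 152 CPM in cKO replicates 1 to 4. Its cKO libraries fell in the same order as those of *Dcn*, from replicate 1 at the top to replicate 4 at the bottom. The mean was 162 ± 14.9 CPM in Ctrl and 188 ± 35.1 CPM in cKO (SD, n = 4 each), with a log2 fold change of 0.22 (interval -0.05 to 0.48, edgeR adjusted p = 0.324). For cKO replicate 4 alone the log2 fold change was 0.01 for *Dcn* and -0.09 for *Lum*, and the fat score as covariate gave 0.01 and -0.09 as well. Without cKO replicate 4 it was 0.33 and 0.31, with adjusted p-values of 0.0975 and 0.0813 in edgeR. The part of the fat signal in these 2 genes was not tested.

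Dermatopontin, the product of *Dpt*, is a small matrix protein that binds decorin and collagen. *Dpt* (chromosome 1, from 164796663 to 164824274) was at 249.7, 273, 222 and 209.9 CPM in Ctrl replicates 1 to 4 and at 250.3, 239.9, 195 and 190.3 CPM in cKO replicates 1 to 4. The genotypes overlapped, with means of 239 ± 28.4 and 219 ± 30.7 CPM (SD, n = 4 each) and a log2 fold change of -0.13 (interval -0.36 to 0.11, edgeR adjusted p = 0.533). *Dpt* did not share the higher cKO means of *Dcn* and *Lum*.

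**Figure D2:**
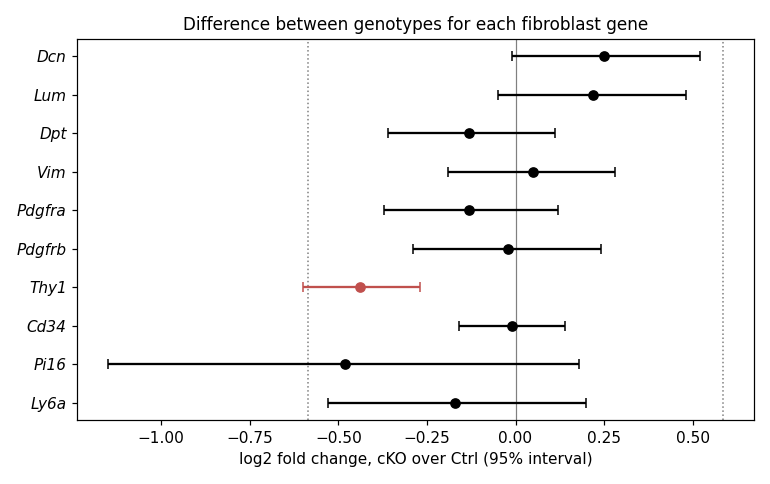
Log2 fold change of each fibroblast gene, cKO over Ctrl (points), with its 95% interval (bars), from edgeR's quasi-likelihood fit to 4 Ctrl and 4 cKO libraries. Dotted lines mark a 1.5-fold change in either direction and red marks an adjusted p under 0.05. *Thy1* lies wholly below 0, at -0.60 to -0.27, and *Pi16* has the widest interval, from -1.15 to 0.18.

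The receptors and the cytoskeletal gene did not differ beyond the spread between mice. *Pdgfra* (chromosome 5, from 75151322 to 75198206), whose product binds PDGF-A, PDGF-B and PDGF-C, was at 433, 448, 334 and 395 CPM in Ctrl and 322, 371, 445 and 338 CPM in cKO replicates 1 to 4. Its log2 fold change was -0.13 (95% interval -0.37 to 0.12, edgeR adjusted p = 0.554). The highest cKO library, replicate 3, was level with the highest Ctrl library. Exons of *Pdgfra* overlap *Gm42802* and *Gm42803* on the opposite strand by 456 and 166 bases and *Mir7025* on its own strand by 30, so some of its reads could belong to them.

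*Pdgfrb* (chromosome 18, from 61045127 to 61085067), whose product binds PDGF-B and PDGF-D, was at 334, 368, 273 and 306 CPM in Ctrl and 312, 326, 372 and 249.7 CPM in cKO replicates 1 to 4. The lowest and the highest of the 8 libraries were both cKO. Its means were 320.3 ± 40.6 and 315 ± 50.5 CPM (SD, n = 4 each), with a log2 fold change of -0.02 (95% interval -0.29 to 0.24, edgeR adjusted p = 0.935). *Vim*, the intermediate filament gene of mesenchymal cells (chromosome 2, from 13574311 to 13582826), was at 358, 390.4, 294 and 299 CPM in Ctrl and 344, 391, 358 and 291 CPM in cKO replicates 1 to 4. The ranges were nearly the same, and the log2 fold change was 0.05 (95% interval -0.19 to 0.28, edgeR adjusted p = 0.844).

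*Cd34*, the gene of a surface sialomucin of fibroblasts, endothelium and blood progenitors, had the smallest spread of the panel among Ctrl mice (coefficient of variation 5.62%), while among cKO mice that of *Thy1* was smaller (6.67% against 8.33%). It lies on chromosome 1 from 194938821 to 194961292 and was at 357, 374, 334 and 334 CPM in Ctrl and 345, 385, 347 and 314 CPM in cKO replicates 1 to 4. Its log2 fold change was -0.01 with a 95% interval from -0.16 to 0.14 (edgeR adjusted p = 0.964). That interval leaves out a change as large as that of *Thy1*. *Gm16897* overlaps its exons by 148 bases on the opposite strand.

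*Pi16* and *Ly6a* had the lowest levels in both genotypes and varied most among Ctrl mice. Among cKO mice *Lum* and *Pdgfrb* varied more than either. *Pi16* encodes a secreted protein of the CAP family and lies on chromosome 17 from 29318796 to 29328903. It was at 81.7, 47.4, 81.5 and 129 CPM in Ctrl and 59.1, 65.7, 48.9 and 69.6 CPM in cKO replicates 1 to 4. The lowest and the highest of the 8 libraries were both Ctrl, and the coefficient of variation among Ctrl mice was 39.3%, higher than in 99.5% of 12243 genes over 5 CPM, whose median was 6.66%. Its log2 fold change was -0.48, larger than that of *Thy1*, with an edgeR adjusted p of 0.378, and it was -0.21 without Ctrl replicate 4 and -0.68 without Ctrl replicate 2. Opposite-strand *AC162182.1* overlaps its exons by 222 bases.

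Genes of the mesothelium, the cell layer that covers the uterus, also varied among the Ctrl libraries. Their summed level over a list of 5 was 260.3, 203, 275 and 298 CPM in Ctrl and 274, 274, 260.2 and 260.4 CPM in cKO replicates 1 to 4, with 0 of 5 past the test. Ctrl replicate 2 was lowest and Ctrl replicate 4 highest for this sum as for *Pi16*. Of the list, *Wt1* was the largest part of the sum and varied little, at 140.3 to 156 CPM in Ctrl (coefficient of variation 4.61%). The other genes had coefficients from 34.2% to 51.3% in Ctrl, so the sum understates their spread. *Upk3b* was at 58.2, 31.2, 78.7 and 80.7 CPM in Ctrl replicates 1 to 4. The part of the outer layer in the *Pi16* levels was not tested.

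*Ly6a* encodes the surface antigen Sca-1 and lies on chromosome 15 from 74994877 to 74998031. It was at 12.8, 17.5, 11.5 and 9.14 CPM in Ctrl and 12.5, 12.2, 10.2 and 10.5 CPM in cKO replicates 1 to 4. All 4 cKO libraries lay inside the Ctrl range (log2 fold change -0.17, 95% interval -0.53 to 0.20, edgeR adjusted p = 0.608). *Ly6a* belongs to a family of genes with similar sequences, among which the counting may have split reads, and its value is uncertain for that reason. None of the 7 family members tested out of 10 passed. *Ly6c1*, the neighbouring family gene of endothelium, named after its values were seen, was at 59.5 ± 9.90 CPM in Ctrl and 59.8 ± 7.94 CPM in cKO (SD, n = 4 each). *Ly6g6c*, *Ly6i* and *Ly6f* were under the filter.

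Compared per kilobase of exon, *Dpt* (138 ± 16.5 CPM per kilobase) and *Dcn* (116 ± 18.2) had the highest levels in Ctrl uteri. *Vim* (70.7), *Lum* (66.3), *Pdgfrb* (58.5), *Thy1* (50.5) and *Cd34* (48.0) followed, then *Pdgfra* (40.2), and *Pi16* (13.3) and *Ly6a* (10.6) were lowest. The ranges of neighbours in this order overlapped, except between *Dcn* and *Vim*, between *Cd34* and *Pdgfra* and between *Pdgfra* and *Pi16*. In cKO uteri the means put *Dcn* (138 CPM per kilobase) before *Dpt* (127), *Lum* (76.9) before *Vim* (73.0), and *Cd34* (47.7) before *Thy1* (37.3), and left the other places as they were.

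The order of the libraries was compared between members. Among the Ctrl libraries, replicate 2 had the highest level of 9 of 10 members and the lowest level of the remaining one, *Pi16*. Ctrl replicate 3 was lowest for *Vim*, *Pdgfra*, *Pdgfrb*, *Dcn* and *Cd34*, and Ctrl replicate 4 for *Lum*, *Thy1*, *Dpt* and *Ly6a*. Among cKO libraries, replicate 4 was lowest for 6 members and highest for *Pi16*. These genes are in the same libraries and share their depth and scaling, so the common order is a description. The summed levels of endothelial genes (1077 CPM in Ctrl replicate 2 against 866 to 925 in the others), pericyte genes (1340.4 against 939.6 to 1129) and smooth muscle genes (9245 against 7276 to 8038) were also highest in Ctrl replicate 2, and that of epithelial genes was lowest there (1245 against 1305 to 1494).

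**Figure D3:**
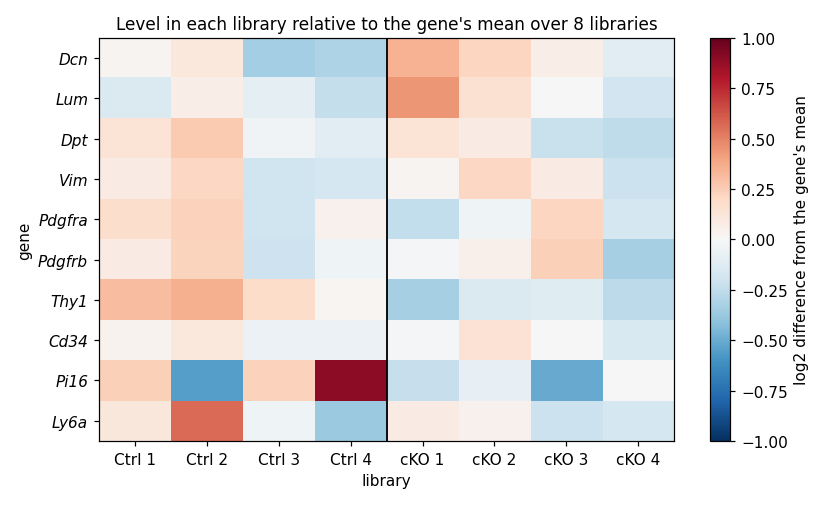
Log2 level of each fibroblast gene in each library relative to that gene's mean over 8 libraries (red above, blue below), with Ctrl libraries left of the line and cKO libraries right of it. Ctrl 2 is the highest Ctrl library for 9 of 10 genes, and the row of *Thy1* is the one that is above its mean in all Ctrl libraries and below it in all cKO libraries.

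Each member was also taken relative to the geometric mean of the other 9 in the same library. On this log2 scale *Thy1* was at -0.36 ± 0.10 in Ctrl and -0.76 ± 0.15 in cKO (SD, n = 4 each), a difference of -0.40. *Dcn* was at 2.03 ± 0.13 and 2.40 ± 0.13 and *Lum* at -0.25 ± 0.12 and 0.06 ± 0.21, differences of 0.37 and 0.31. The groups did not overlap for these 3 genes and overlapped for the other 7, against 12.4% of all genes taken relative to the members in the same way. For *Lum* the groups were close, with -0.11 in Ctrl replicate 3 and -0.10 in cKO replicate 4.

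Genes that act with the members were read from lists of related genes. Of the 4 PDGF ligand genes, *Pdgfd* and *Pdgfc* were lower in cKO uteri and *Pdgfa* and *Pdgfb* did not pass, and both ligands that were lower are of the type that must be cut by a protease before it can bind. *Pdgfd* was at 39.3, 32.0, 31.5 and 33.9 CPM in Ctrl and 22.7, 23.4, 22.5 and 23.6 CPM in cKO replicates 1 to 4 (log2 fold change -0.57, standard error 0.08, edgeR adjusted p = 0.00107). The cKO libraries lay close together, and all Ctrl libraries were above them. *Pdgfc* was at 120.0 ± 5.5 CPM in Ctrl and 99.5 ± 6.78 CPM in cKO (SD, n = 4 each). Its log2 fold change of -0.27 (edgeR adjusted p = 0.0242) did not pass without Ctrl replicate 1 or cKO replicate 1 or 2, reaching 0.0928. With the fat score as a covariate the adjusted p in edgeR was 0.0943 for *Pdgfd* (-0.51) and 0.458 for *Pdgfc* (-0.22), and for cKO replicate 4 alone the log2 fold changes were -0.53 and -0.21 (edgeR adjusted p = 0.273 and 0.681). *Pdgfa* (27.7 ± 0.871 and 26.8 ± 2.02 CPM) and *Pdgfb* (40.2 ± 3.22 and 40.5 ± 1.92 CPM) overlapped between the genotypes.

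Of 12 other small leucine-rich proteoglycan genes, 11 were tested (*Epyc* was under the filter) and 1 passed. That gene, *Aspn*, the gene of asporin, was at 13.4, 15.3, 14.2 and 13.3 CPM in Ctrl and 28.2, 24.1, 18.1 and 19.6 CPM in cKO replicates 1 to 4. Its cKO values were all higher and more spread than those of Ctrl (log2 fold change 0.68, standard error 0.13, edgeR adjusted p = 0.00902). The fat score as a covariate gave 0.48 (edgeR adjusted p = 0.37) and cKO replicate 4 alone gave 0.49 (edgeR adjusted p = 0.272). The median over the 11 genes was a log2 fold change of 0.013.

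Of 20 genes listed for adventitial fibroblasts, the population that *Pi16* marks, 18 were tested (*Cd70* and *Has1* were under the filter). Of these, 1 was higher, 4 were lower and the median log2 fold change was 0.061. *Efemp1*, the gene of fibulin-3 in the elastic matrix, was at 102, 98.7, 97.6 and 97.5 CPM in Ctrl and 61.0, 64.8, 55.7 and 57.2 CPM in cKO replicates 1 to 4. The groups were far apart, with little spread in either (log2 fold change -0.73, standard error 0.06, edgeR adjusted p = 2.85e-05). *Efemp1* passed in every fit made for it, also with the fat score (edgeR adjusted p = 0.00185) and for cKO replicate 4 alone (edgeR adjusted p = 0.012). *Igfbp6*, which binds insulin-like growth factors, fell from 80.4 ± 8.98 to 53.3 ± 3.95 CPM (SD, n = 4 each, log2 fold change -0.59), and passed in all fits but that of cKO replicate 4 alone (-0.64, edgeR adjusted p = 0.16).

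*Sema3c*, the gene of a secreted guidance protein, fell from 276 ± 23.0 to 208 ± 15.5 CPM (SD, n = 4 each, log2 fold change -0.41, edgeR adjusted p = 0.00592). It was -0.28 with the fat score and -0.27 for cKO replicate 4 alone, where it did not pass (edgeR adjusted p = 0.338 and 0.694). *Mfap5*, a gene of the microfibrils named after its values were seen, had a log2 fold change of -0.24 (edgeR adjusted p = 0.0277). It was -0.27 with the fat score, where it did not pass (edgeR adjusted p = 0.252), and -0.23 for cKO replicate 4 alone. *Mfap5* also did not pass in 5 of the 8 fits without a library, those without Ctrl replicate 1, 2 or 3 or cKO replicate 1 or 3. *Pcolce2*, whose product aids the cutting of procollagen, was at 3.86 ± 0.466 CPM in Ctrl and rose to 7.71 ± 0.606 CPM in cKO (SD, n = 4 each), with a log2 fold change of 1.00 (edgeR adjusted p = 0.000653), and passed with the fat score (edgeR adjusted p = 0.0389) but not for cKO replicate 4 alone (1.00). *Clec3b*, named after its values were seen, was at 3.92 to 13.1 CPM in Ctrl and at 23.4, 20.5, 15.4 and 5.39 CPM in cKO replicates 1 to 4. It was high in the 3 cKO libraries with fat cell genes and not in cKO replicate 4 (log2 fold change 1.24, edgeR adjusted p = 0.251).

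Of 20 mesenchymal and uterine stromal genes, 6 were higher, 3 were lower and 11 did not pass, with a median log2 fold change of 0.039. The higher ones were the matrix genes *Postn*, *Col6a3* and *Col3a1*, the transcription factor genes *Prrx1* and *Twist1*, and *S100a4*. The lower ones were *Nt5e* and *Mme*, which encode enzymes of the cell surface, and the transcription factor gene *Twist2*. *Postn*, the gene of periostin, rose from 607 ± 46.7 to 869 ± 70.4 CPM and *Col6a3* from 342 ± 55.6 to 494 ± 41.7 CPM (SD, n = 4 each), with log2 fold changes of 0.52 (edgeR adjusted p = 0.00146) and 0.53 (edgeR adjusted p = 0.0148). *Prrx1* was at 133, 138, 120.0 and 129.7 CPM in Ctrl and 170.0, 174, 172 and 170.3 CPM in cKO replicates 1 to 4, with a log2 fold change of 0.40. *Prrx1*, *Twist1*, *Col3a1*, *S100a4* and *Mme* were chosen after values were seen.

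The twist genes, a pair of close relatives, went in opposite directions. *Twist1* was at 14.5 to 15.8 CPM in Ctrl and 18.7 to 20.4 CPM in cKO (log2 fold change 0.37, edgeR adjusted p = 0.0121), and *Twist2* was at 22.4 to 30.4 CPM in Ctrl and 16.5 to 20.2 CPM in cKO (-0.49, edgeR adjusted p = 0.0149). Without Ctrl replicate 1 neither passed (edgeR adjusted p = 0.0521 and 0.0586). *Nt5e* (-0.54, edgeR adjusted p = 0.041), *Col3a1* (0.36, edgeR adjusted p = 0.0454) and *S100a4* (0.37, edgeR adjusted p = 0.0491) were near the threshold, and passed in 2, 2 and 1 of the 8 fits without a library. *Nt5e* and *S100a4* also did not pass with no filter on low counts, *Col3a1* and *S100a4* with limma-voom, and *Col3a1* with robust = FALSE. All 9 had the same sign in every fit. None passed with the fat score as a covariate. With it and for cKO replicate 4 alone, *Postn* was at 0.40 in both fits and *Prrx1* at 0.38 and 0.39. *Twist1* was at 0.37 and 0.36, *Twist2* at -0.47 and -0.4, *Col6a3* at 0.37 and 0.36 and *S100a4* at 0.3 and 0.27. *Col3a1* went from 0.36 to 0.13 and 0.09 in these fits and *Mme* from -0.44 to -0.28 and -0.23, while *Nt5e* was at -0.80 in both. None of 6 genes of other filaments, lamins and linkers that work with vimentin passed.

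**Figure D4:**
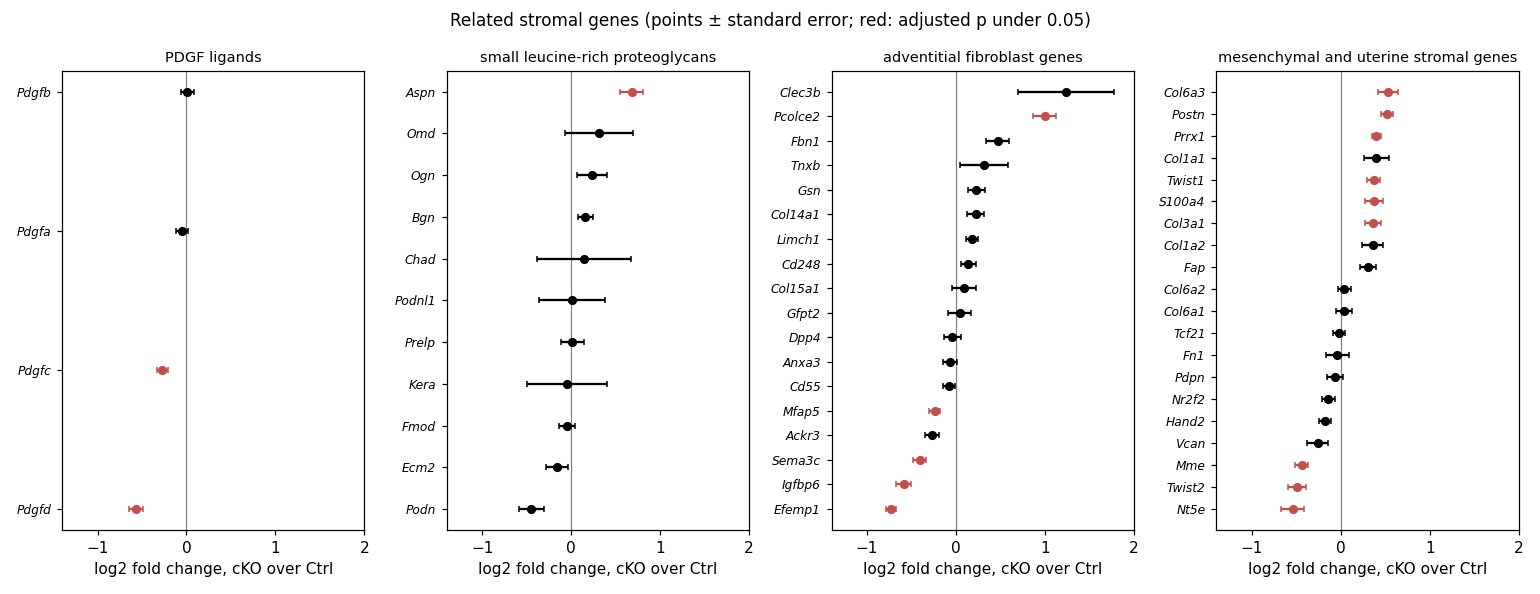
Log2 fold change, cKO over Ctrl (points), with its standard error (bars) for the tested genes of 4 lists, sorted by value, where red marks an adjusted p under 0.05 in edgeR. Each list spreads to both sides of 0, with 2 of 4 PDGF ligands, 1 of 11 proteoglycan genes, 5 of 18 adventitial genes and 9 of 20 stromal genes past the test.

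Markers of other cells of the uterus were present in all libraries. None of 10 endothelial, 8 smooth muscle, 8 epithelial, 5 mesothelial or 7 macrophage genes passed the test, with log2 fold changes above 0 for 9, 7, 8, 4 and 2 of them and medians of 0.19, 0.075, 0.15, 0.13 and -0.12. Of the pericyte genes, 1 of 8 passed (*Higd1b*, log2 fold change 0.95, edgeR adjusted p = 0.0215). *Higd1b* did not pass without Ctrl replicate 1, 3 or 4 or cKO replicate 1 or 3, or with the fat score (0.83), and was at 0.78 for cKO replicate 4 alone. The most abundant in their own lists were *Acta2* (3690.1 ± 443 and 3755 ± 305 CPM) and *Myh11* (1636 ± 331 and 1941 ± 154 CPM) of muscle, *Krt8* (384 ± 45.6 and 436 ± 54.5 CPM) and *Krt19* (264 ± 27.9 and 317 ± 18.2 CPM) of epithelium, in Ctrl and cKO (SD, n = 4 each). Every cKO library was above every Ctrl library for *Krt19* (edgeR adjusted p = 0.0657). Endothelial *Cdh5* and *Pecam1*, pericyte *Mcam* and *Abcc9* and macrophage *Csf1r* and *Mrc1* did not pass either. *Fabp4* and *Cfd*, the most abundant fat cell genes, were at 39.0 to 107 and 17.7 to 42.6 CPM in cKO replicates 1 to 3 and at most 1.61 and 0.812 CPM in the other libraries. Of 6 fat cell genes tested, *Adrb3* passed (1.34, edgeR adjusted p = 0.00204). It did not pass with the fat score (0.96, edgeR adjusted p = 0.156), of which it is itself a part, and was at 0.99 for cKO replicate 4 alone.

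**Figure D5:**
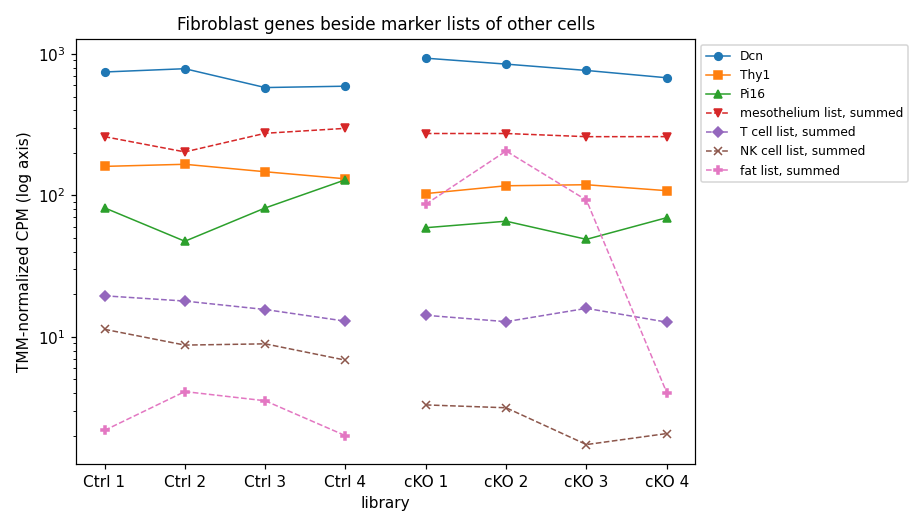
TMM-normalized CPM (log axis) of *Dcn*, *Thy1* and *Pi16* and the summed CPM of 4 marker lists in each library, where lines join libraries of a genotype only to guide the eye. The fat list is at 86.6 to 206 CPM in cKO 1 to 3 and at 4.03 CPM in cKO 4, while *Thy1* is at 103 to 119 CPM in all cKO libraries, and *Pi16* and the mesothelium list are both lowest in Ctrl 2 and highest in Ctrl 4 among the Ctrl libraries.

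PRC2 is known to act at promoters rich in CpG, so the sequence before the start of each member was read from RefSeq (GRCm38.p6), where 5 of the 10 members matched. In these windows of 250 bases *Vim* had 8 CpG, *Cd34* 6, *Pdgfra* 4, *Dpt* 3 and *Pi16* 2, against a median of 6 over 32851 such windows. None of the 5 passed the test between genotypes. *Thy1*, the member that did, had no window here, so CpG cannot be set against the call. *Vim* and *Dpt* are shown because they have the most and the fewest CpG among the windows that lie wholly before the annotated gene, with CpG in capitals and the rest in lower case, both on the plus strand, at chr2:13574061-13574310 and chr1:164796413-164796662. Of all windows, 59.7% had as few CpG as *Vim* or fewer, and 37.8% as few as *Dpt* or fewer.
Vim: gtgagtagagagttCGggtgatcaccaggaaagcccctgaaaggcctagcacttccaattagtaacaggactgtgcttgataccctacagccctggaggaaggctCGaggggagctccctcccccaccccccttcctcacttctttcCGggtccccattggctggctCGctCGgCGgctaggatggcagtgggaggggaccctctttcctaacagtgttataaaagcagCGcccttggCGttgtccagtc
Dpt: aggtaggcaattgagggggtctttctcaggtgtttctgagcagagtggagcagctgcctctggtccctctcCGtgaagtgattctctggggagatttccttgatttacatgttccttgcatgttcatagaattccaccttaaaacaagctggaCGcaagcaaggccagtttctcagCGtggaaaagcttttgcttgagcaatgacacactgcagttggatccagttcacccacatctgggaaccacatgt
The counts are a description of these windows, and no binding or methylation was measured.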

How the data were processed

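RNA-seq was done on whole uteri of 4 Ctrl and 4 cKO mice at PD10, from libraries of a stranded mRNA kit. The deposited values are raw counts, 1 file per library, listed by Entrez gene. The authors made them with Trimmomatic for trimming, HISAT2 for alignment to GRCm38 and featureCounts for counting. The annotation release, the strand setting and the rule for reads with several matches are not given in the sources used here. The authors' table of their edgeR comparison holds fold changes, CPM averages and p-values, and only its identifiers and symbols were used. Their table of normalized values was not used.

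Counts were joined by Entrez identifier, and 25440 of 27179 genes had a symbol. Exon lengths and coordinates came from a GRCm38 gene annotation, which gave a length for 22141. Genes above 0.2 CPM in 4 or more libraries were kept, scaled by TMM and tested with glmQLFit (robust = TRUE) and glmQLFTest of edgeR 4.0.16 in R 4.3.3, with its default prior count and Benjamini-Hochberg adjustment over all genes tested. A standard error is the size of the log2 fold change divided by the square root of F. Permutation tests used log2(CPM + 0.1). On drawn counts for 16658 genes the test recovered 100 of 100 genes changed by 1 and 100 of 100 changed by 2 on the log2 scale, with 16 false calls. Changes as small as those of the members were not drawn, so this recovery does not tell how often such changes are missed. A count of 0 allows up to 3 counts, or 0.0824 to 0.117 CPM, for counting error only. No pair of libraries was alike within sampling noise (chi-square per gene from 7.55 to 30.7 over 28 pairs).

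The members, lists, tests and alternatives were chosen with earlier results of these data known, and the NK cell and neuron lists after their values were seen. Genes named are the members, *Ezh2*, at most 4 genes past the test with the largest change in each related list, the 2 most abundant of each marker list of other cells, and the 3 genes most like a member past the test, and the text says where a gene was chosen after its values. Withheld names are left out. Alternatives were other scalings and filters, DESeq2 1.42.0, limma-voom (limma 3.58.1), robust = FALSE, a prior count of 2, a replicate block, the fat score as a covariate, cKO replicate 4 alone, and leaving out each library.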

Additional observations from a re-analysis of the deposited data

How the results depend on the processing

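For *Thy1* the direction was kept in 19 of 19 alternatives and the call in 17, and no member was DE in any. The number of members past the adjusted p was 1 in each fit without a library, 2 with a replicate block, 0 with the fat score as covariate and 0 for cKO replicate 4 alone. Over all genes tested, 889 passed and 217 were DE. Passing genes were 1506 with DESeq2, 118 with the fat score and 38 for cKO replicate 4 alone, and 425 (without Ctrl replicate 1) to 1783 (without cKO replicate 4) in the fits without a library. DE genes were 139 with a filter of 1 CPM, 48 with the fat score and 22 for cKO replicate 4 alone, and 142 (without cKO replicate 2) to 336 (without cKO replicate 4), with 143 without Ctrl replicate 1. The cause of these changes was not tested. Members near 0 changed sign, none of them past the test. *Vim* was at -0.22 with the fat score, -0.20 for cKO replicate 4 alone and -0.02 to 0.13 without a library (-0.01 without Ctrl replicate 3 or 4, and -0.02 without cKO replicate 2). *Lum* was at -0.09 with the fat score and -0.09 for cKO replicate 4 alone. *Cd34* was at 0 with library totals only and at -0.06 to 0.04 without a library (0.01, 0.03, 0 and 0.04 without Ctrl replicate 1 or 2 or cKO replicate 1 or 4). *Pdgfrb* was at -0.12 to 0.07 (0, 0.05 and 0.07 without Ctrl replicate 1 or 2 or cKO replicate 4) and *Ly6a* at -0.30 to 0.02 (0.02 without Ctrl replicate 2). With the fat score and for cKO replicate 4 alone, *Pdgfrb* was at -0.32 and -0.36, *Dpt* at -0.35 and -0.32, *Ly6a* at -0.37 and -0.28, *Pdgfra* at -0.23 and -0.25, *Cd34* at -0.17 and -0.15 and *Pi16* at -0.17 and -0.29, again with no call. The cause of these sign changes was not tested.

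The replicate numbers of the genotypes were checked as pairs. Deviations from the group means correlated at 0.02, 0.11, 0 and 0.19 for numbers 1 to 4, and only number 4 correlated best with its own. No label says that the numbers pair the mice, and 4 correlations cannot settle it. With the replicate block 2 members passed, *Thy1* and *Dcn* (log2 fold change 0.26, edgeR adjusted p = 0.036). Over all genes tested, 1240 passed with the block, against 889 without it. Among the related stromal genes named above, *S100a4* lost the call with the block (edgeR adjusted p = 0.0645), and the calls in either direction in a list moved by at most 1, except for 5 fat cell genes higher in place of 1.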
